A study of Mus musculus with 6 samples.

Results

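The genes described here are 30 symbols of the Schwann cell, glial and melanocyte lineages, found by name among the 24421 rows of a differential expression table of the palate. Of them, 22 were assigned to Schwann cell precursors, Schwann cells or other glia, and 8 to melanoblasts and melanocytes. Nrg1 and Kitl are counted there as ligands of receptors on these cells, which need not make them. The 22 glial genes were ordered as 5 transcription factors, 8 receptors and ligands, and 9 cytoplasmic, membrane or myelin proteins. RNA was measured in anterior palatal mesenchyme of C57BL/6 mouse embryos at E12.5. The mutant group was Wnt1Cre;Meis2f/f, with 3 libraries, in which floxed alleles of the homeodomain factor Meis2 are deleted by a Cre recombinase driven by Wnt1 and so active in the neural crest. The other group was wildtype, with 3 libraries and no further allele named, so no group with the Cre alone was compared. Which part of Meis2 the floxed allele removes is not stated in the labels.

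Schwann cells are the glia of peripheral nerves and arise from neural crest cells that travel along growing axons as Schwann cell precursors. These precursors depend on neuregulin 1 from axons, received by the ErbB3 and ErbB2 receptor pair, and on the transcription factor Sox10. Melanoblasts, the precursors of pigment cells, come from the same crest, either by migration under the skin or from Schwann cell precursors on nerves. They need the factor Mitf and the receptor Kit with its ligand Kitl, and start the melanin enzymes Dct, Tyrp1 and Tyr. Both lineages descend from the cells in which Wnt1Cre is active, whereas the muscle, macrophages and vessel lining of the palate do not.

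The upstream sequences of 6 members are shown because the results turn on them: Kit, Gpr37 and Ngfr differed between the genotypes, and Tyr, Tyrp1 and Dct are the pigment enzymes that were close to absent. Each run is the 250 bases before a RefSeq start of the gene on its own strand, on GRCm38.p6, and capitals mark matches to the motifs ACAAAG of SOX factors, TGACAG of MEIS factors and CATGTG, an E-box bound by MITF, on either strand. The Kit run lies at chr5:75574737-75574986 on the plus strand, Gpr37 at chr6:25689981-25690230 on the minus strand, and Ngfr at chr11:95587699-95587948 on the minus strand. The Tyr run lies at chr7:87493513-87493762 on the minus strand, Tyrp1 at chr4:80833963-80834212 on the plus strand, and Dct at chr14:118052247-118052496 on the minus strand. RefSeq starts can differ from the ends of GENCODE gene intervals. The Gpr37 run thus lies inside its interval, and the Kit, Ngfr and Tyrp1 runs overlap theirs in part.
Kit: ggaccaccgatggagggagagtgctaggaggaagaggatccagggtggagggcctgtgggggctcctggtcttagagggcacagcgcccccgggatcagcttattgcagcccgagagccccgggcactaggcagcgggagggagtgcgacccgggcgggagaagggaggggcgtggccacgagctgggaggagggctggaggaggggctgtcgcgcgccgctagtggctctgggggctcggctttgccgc
Gpr37: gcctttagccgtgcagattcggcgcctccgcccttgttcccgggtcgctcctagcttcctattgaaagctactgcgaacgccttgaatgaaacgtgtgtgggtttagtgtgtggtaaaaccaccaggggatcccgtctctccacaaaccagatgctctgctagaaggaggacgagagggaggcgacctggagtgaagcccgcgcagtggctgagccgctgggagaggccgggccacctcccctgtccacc
Ngfr: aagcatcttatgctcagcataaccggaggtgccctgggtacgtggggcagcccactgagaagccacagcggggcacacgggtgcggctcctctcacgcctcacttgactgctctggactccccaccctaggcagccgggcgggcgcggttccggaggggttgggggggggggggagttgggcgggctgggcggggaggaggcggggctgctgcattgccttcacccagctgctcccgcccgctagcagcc
Tyr: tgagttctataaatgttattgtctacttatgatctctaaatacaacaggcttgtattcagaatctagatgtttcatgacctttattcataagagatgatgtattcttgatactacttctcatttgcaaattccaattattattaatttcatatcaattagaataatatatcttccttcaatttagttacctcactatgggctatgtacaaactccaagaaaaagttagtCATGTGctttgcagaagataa
Tyrp1: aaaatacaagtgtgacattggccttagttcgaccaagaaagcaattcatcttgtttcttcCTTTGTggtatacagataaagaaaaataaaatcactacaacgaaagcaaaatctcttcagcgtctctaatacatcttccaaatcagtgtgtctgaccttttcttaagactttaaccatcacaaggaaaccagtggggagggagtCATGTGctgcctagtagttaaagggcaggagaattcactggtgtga
Dct: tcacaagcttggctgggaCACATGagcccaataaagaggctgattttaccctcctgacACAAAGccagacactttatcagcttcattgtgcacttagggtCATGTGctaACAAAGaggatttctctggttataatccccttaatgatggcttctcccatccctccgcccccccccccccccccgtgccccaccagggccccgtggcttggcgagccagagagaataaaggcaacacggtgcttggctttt

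None of the motifs was found in the windows of Kit, Gpr37 or Ngfr, which says only that these letters are not in these stretches. The Tyr run held CATGTG with its first base 21 bases before the start, and the Tyrp1 run held it 46 bases before the start, with CTTTGT, the other strand of the SOX motif, 190 bases before. The Dct run held ACAAAG 192 and 141 bases before the start, CATGTG 150 bases before and its other strand CACATG 232 bases before. Windows of 300 bases, with 250 before and 50 after a start, were given for 21 of the 30 members and for 27025 genes in all. The SOX motif was in 5 of the 21 members (23.8%) and in 21% of all genes, the MEIS motif in 4 (19%) and 21.6%, and the MITF E-box in 5 (23.8%) and 15.9%. Among the 6 melanocyte members with a window, Dct, Tyr and Tyrp1 held the E-box. A match is a description of letters and no evidence of binding.

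The deposited tables give a base mean for each gene, the mean over libraries of reads divided by a size factor, and not the libraries themselves. Because each library adds whole reads at its own fixed weight to a base mean, the reads of every library could be solved, and exactly 1 set of whole reads matched for all 12457 measured genes up to a base mean of 1500. Libraries carry no replicate number, so they are called A, B and C within a genotype. Values per library below are normalised reads, which are solved reads divided by the size factor of the library. For the pigment genes, solved reads that were not normalised are given instead. Size factors ran between 0.77 and 1.44, and a gene with a base mean of at least 10 was taken as measured. All 30 members had reads in at least 1 library, and 21 were measured, 18 of the 22 glial and 3 of the 8 melanocyte genes.

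Meis2 itself had 1250, 1218 and 1378 normalised reads in mutant libraries A, B and C, against 1526, 1695 and 1549 in wildtype libraries A, B and C. The groups did not overlap, and the log2 fold change was -0.28 (SE 0.0917, adjusted p 0.0743) per the authors' deposited table of 6 libraries and -0.33 (adjusted p 0.0213) in that of 4. No source used here names the sign of the fold change, and mutant over wildtype was the reading under which Meis2 is lower, so the directions below all rest on this gene. Fold changes in these tables are moderated toward 0, which understates those of genes with few reads. The moderation can differ between the tables of 6 and of 4 libraries, so their values need not be on a common scale.

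Per kilobase of exon, the members spanned a wide range in the mean of the 6 libraries. The highest were Erbb2 with a base mean of 198 per kb, Pmp22 with 182 and Ngfr with 156. Sox10, a factor on which Schwann cell precursors depend, had 8.73 per kb, below Erbb3 with 72.1 and Kit with 59.3. The pigment genes were at the low end, with Pmel at 3.54, Tyrp1 at 0.904, Dct at 0.574, Mlana at 0.521 and Tyr at 0.097 per kb. Erbb2, Pmp22, Gpm6b and Ptprz1 are also made by cells other than glia. Which cells made the RNA of Ngfr, Erbb3 and the other members was not measured, so no level here is a measure of glial content.

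**Figure D1:**
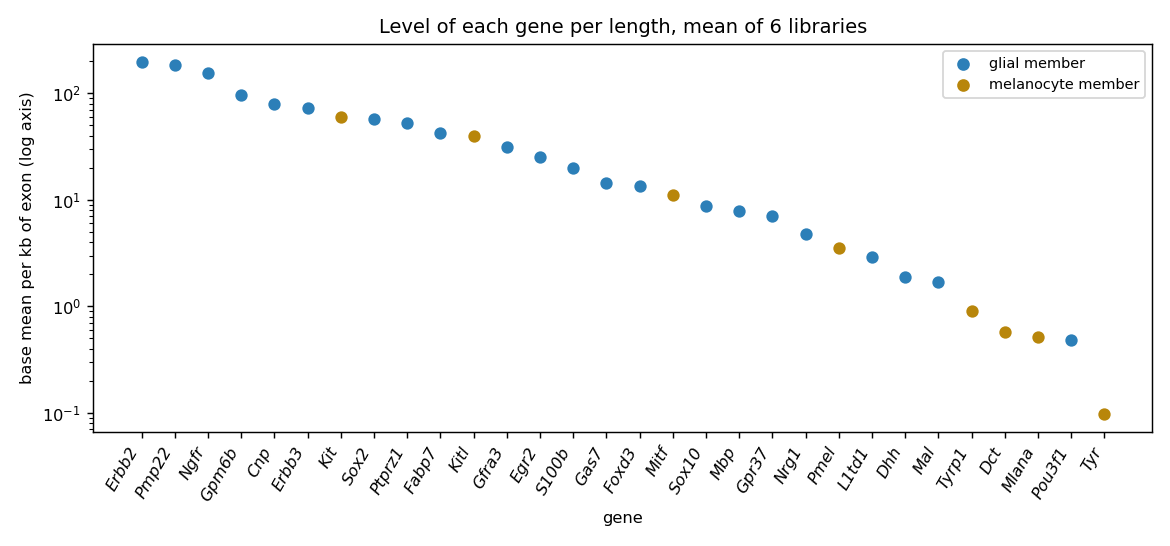
Base mean per kilobase of exon (vertical log axis) for the 30 members, ordered by level, with glial and melanocyte members in separate colours. Erbb2 is highest at 198 per kb and Tyr lowest at 0.097, and the 5 pigment genes lie between 0.097 and 3.54, below Kit at 59.3.

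Of the 30 members, 3 were called (adjusted p under 0.05) per the authors' deposited table of 6 libraries, where 2.90% of all 14942 genes with an adjusted p were called. Kit, the receptor for stem cell factor that melanoblasts need, was higher in the mutant. Gpr37, an orphan G protein-coupled receptor of glia, and Ngfr, the p75 neurotrophin receptor of neural crest and Schwann cells, were lower in the mutant. The shares of all genes called were 1.75% in the higher and 1.16% in the lower direction. By the authors' deposited table of 4 of these libraries, which leaves out library C of each genotype, Kit was the 1 member called, beside 2.30% of 14548 genes (1.31% higher, 0.990% lower).

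A second test, limma on the solved reads, was added after seeing the data and called the same 3 members at an adjusted p under 0.05, beside 2.50% of 12457 measured genes. With any 1 library left out of that test, Ngfr was not called. Gpr37 and Kit were called in 5 of the 6 such fits and not without wildtype A, where their adjusted p was 0.0704 and 0.0584. Calls over all genes also fell in that fit, to 127 of 12457, beside 311 with 6 libraries. The other fits called between 185 and 375 genes.

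**Figure D2:**
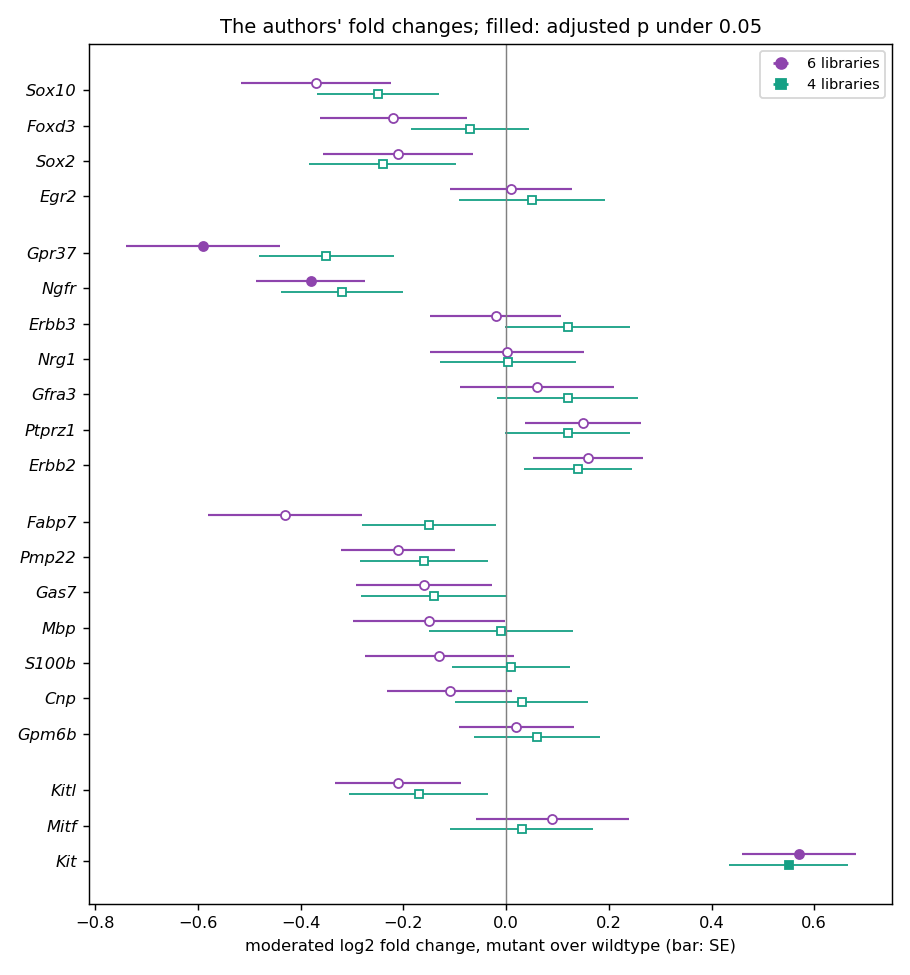
Moderated log2 fold change, mutant over wildtype (horizontal axis, bars are SE), of the 21 measured members per the authors' deposited tables of 6 and of 4 libraries, with filled symbols at an adjusted p under 0.05. Kit is filled at 0.57 and 0.55, while Gpr37 and Ngfr are filled at -0.59 and -0.38 with 6 libraries and open with 4.

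Among the transcription factors none was called. Sox10 had 18.1, 15.9 and 19.8 normalised reads in mutant libraries, against 37.6, 41.3 and 27.2 in wildtype libraries. All 3 mutant libraries were below all 3 wildtype libraries, and the means were 17.9 ± 1.94 in the mutant and 35.4 ± 7.31 in wildtype (SD, n = 3 each). The moderated log2 fold change was -0.37 (SE 0.146) with an unadjusted p of 0.0113 and an adjusted p of 0.217 per the authors' deposited table, so Sox10, which rests on 162 reads in all, did not pass the test. Sox10 lies on chromosome 15 at 79154908 to 79165240 of GRCm38.

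Sox2, a factor kept on in immature Schwann cells, had 109, 66.0 and 136 normalised reads in mutant libraries, against 122, 134 and 143 in wildtype libraries. Foxd3, a forkhead factor of neural crest cells and glial precursors, had 23.0, 31.8 and 17.9 in mutant libraries, against 19.2, 52.9 and 41.4 in wildtype libraries. In both genes the genotypes overlapped, and neither was called per the authors' deposited table (log2 fold changes -0.21 and -0.22, adjusted p 0.698 and 0.683). Egr2, the factor that drives myelination later in development, had 82.1, 141 and 42.3 normalised reads in mutant libraries, against 81.5, 125 and 46.1 in wildtype libraries. Its libraries varied more within a genotype than between genotypes, with a moderated log2 fold change of 0.01 per the authors' deposited table. Pou3f1, a factor of promyelinating Schwann cells, was not measured and had 13 reads over the 6 libraries.

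Of the receptors, Gpr37 had 25.0, 28.1 and 25.4 normalised reads in mutant libraries, against 61.5, 60.7 and 55.6 in wildtype libraries. The libraries of each genotype were close together and did not overlap, with means of 26.2 ± 1.69 in the mutant and 59.3 ± 3.21 in wildtype (SD, n = 3 each). The moderated log2 fold change was -0.59 (SE 0.150, adjusted p 0.00521) per the authors' deposited table of 6 libraries and -0.35 (adjusted p 0.175) in that of 4 libraries. The unmoderated log2 ratio of the means of the 6 libraries was -1.18, and between -1.23 and -1.15 when any 1 library was left out. Gpr37 lies on chromosome 6 at 25665878 to 25690729 of GRCm38, and no other annotated gene shares its exons.

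Ngfr had 420, 487 and 456 normalised reads in mutant libraries, against 562, 644 and 652 in wildtype libraries. The genotypes did not overlap, with means of 454 ± 33.3 in the mutant and 619 ± 49.9 in wildtype (SD, n = 3 each). The moderated log2 fold change was -0.38 (SE 0.106, adjusted p 0.0140) per the authors' deposited table of 6 libraries and -0.32 (adjusted p 0.175) in that of 4 libraries. Ngfr lies on chromosome 11 at 95568818 to 95587735 of GRCm38. In bulk RNA, fewer cells of a type and less RNA per cell cannot be told apart, and that holds for each gene here.

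The neuregulin receptors were not called. Erbb3, which binds neuregulin, had 404, 422 and 462 normalised reads in mutant libraries, against 372, 372 and 569 in wildtype libraries. The highest and the lowest libraries were both wildtype, and the moderated log2 fold change was -0.02 (SE 0.127, adjusted p 0.980) per the authors' deposited table. Erbb2, the signalling partner of Erbb3 that many cell types make, had 1075, 980 and 1238 in mutant libraries, against 849, 1003 and 1046 in wildtype libraries, with a moderated log2 fold change of 0.16 (SE 0.107, adjusted p 0.691) per the authors' deposited table. Their ligand Nrg1 had 53.6, 37.9 and 57.4 normalised reads in mutant libraries, against 47.9, 43.9 and 58.0 in wildtype libraries, and a moderated log2 fold change of 0.002 (SE 0.150) per the authors' deposited table. Exons of Erbb2 and Nrg1 overlap those of other annotated genes, so part of their reads may belong to those genes.

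Ptprz1, a receptor phosphatase that binds pleiotrophin, had 894, 629 and 841 normalised reads in mutant libraries, against 694, 683 and 713 in wildtype libraries. Gfra3, the artemin co-receptor, had 62.6, 67.3 and 64.9 in mutant libraries, against 60.7, 41.3 and 76.9 in wildtype libraries. Neither was called, with log2 fold changes of 0.15 (adjusted p 0.742) and 0.06 (adjusted p 0.943) per the authors' deposited table. Dhh, the hedgehog ligand of Schwann cells, was under the measured level with a base mean of 8.24, and its exons overlap other annotated genes.

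None of the cytoplasmic, membrane and myelin genes was called. Fabp7, a fatty acid binding protein of Schwann cell precursors and radial glia, had 29.2, 46.5 and 33.9 normalised reads in mutant libraries, against 52.7, 54.2 and 101 in wildtype libraries. The genotypes did not overlap, wildtype C stood well above the others, and the log2 fold change was -0.43 (SE 0.150, adjusted p 0.114) per the authors' deposited table of 6 libraries and -0.15 (adjusted p 0.942) in that of 4. Pmp22, a protein of compact myelin that mesenchyme also makes, had 350, 443 and 384 normalised reads in mutant libraries, against 460, 454 and 485 in wildtype libraries. The Pmp22 groups did not overlap either, by a narrow margin between mutant B and wildtype B, with a moderated log2 fold change of -0.21 (SE 0.111, adjusted p 0.484) per the authors' deposited table.

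S100b, a calcium-binding protein of glia, had 25.0, 25.7 and 26.3 normalised reads in mutant libraries, against 27.2, 21.9 and 49.7 in wildtype libraries. Its unmoderated log2 ratio was -0.36 over the 6 libraries and 0.06 without wildtype C. The myelin basic protein gene Mbp had 70.3, 58.7 and 53.6 normalised reads in mutant libraries, against 71.1, 62.0 and 86.3 in wildtype libraries. Cnp, the nucleotide phosphodiesterase of myelin, Gpm6b, a membrane glycoprotein of neurons and glia, and Gas7, a cytoskeletal adaptor, had log2 fold changes of -0.11, 0.02 and -0.16 with adjusted p between 0.773 and 0.980 per the authors' deposited table. Exons of Cnp, Gas7, Foxd3 and Pou3f1 also overlap those of other annotated genes. Mal, a raft protein of myelin, and L1td1, an RNA-binding protein, were under the measured level with base means of 4.71 and 9.28.

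**Figure D3:**
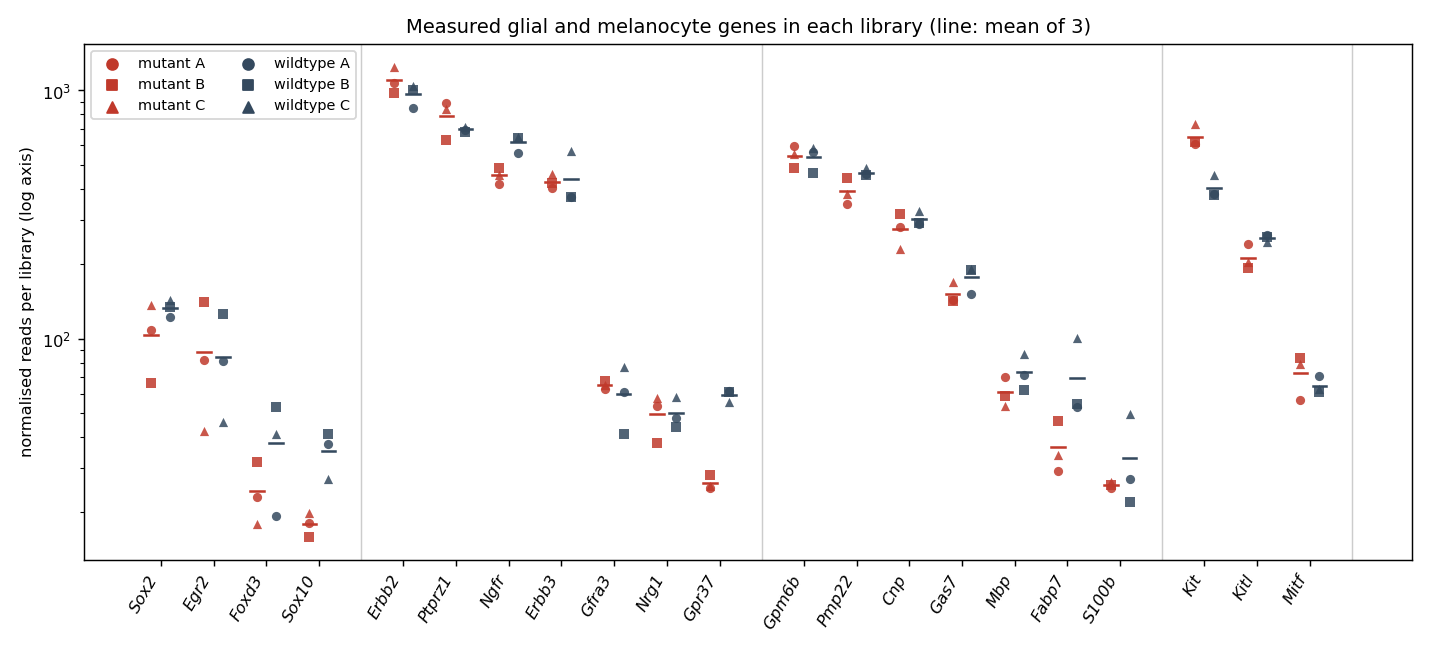
Normalised reads per library (vertical log axis) of the 21 measured members, by role, with 3 mutant libraries left and 3 wildtype libraries right for each gene and a line at the mean. Mutant libraries of Gpr37 and Sox10 lie below, and those of Kit above, every wildtype library of the same gene.

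Kit had 608, 618 and 729 normalised reads in mutant libraries, against 383, 378 and 457 in wildtype libraries. Every mutant library was above every wildtype library, with means of 652 ± 67.4 in the mutant and 406 ± 43.9 in wildtype (SD, n = 3 each). The moderated log2 fold change was 0.57 (SE 0.111, adjusted p 3.07e-05) per the authors' deposited table of 6 libraries, a moderated fold of 1.49, and 0.55 (adjusted p 1.98e-04) in that of 4 libraries. The unmoderated log2 ratio was 0.68, and between 0.59 and 0.78 with any 1 library left out. Kit lies on chromosome 5 at 75574916 to 75656722 of GRCm38, and no other annotated gene shares its exons.

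The other melanocyte genes were not called. Kitl, the ligand of Kit, had 240, 192 and 203 normalised reads in mutant libraries, against 262, 257 and 245 in wildtype libraries. The Kitl groups did not overlap, in the direction opposite to its receptor, but the log2 fold change of -0.21 (SE 0.122, adjusted p 0.611) per the authors' deposited table did not pass the test. Mitf, the factor that directs the melanocyte fate and is also made in other cells, had 56.3, 83.2 and 79.0 in mutant libraries, against 70.3, 60.7 and 62.7 in wildtype libraries, with overlapping groups.

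The pigment genes gave few reads in either genotype. Dct had 6, 3 and 3 reads in mutant libraries, against 6, 1 and 3 in wildtype libraries. Tyrp1 had 5, 5 and 4 reads in mutant libraries, against 1, 0 and 1 in wildtype libraries. Each mutant library thus held more Tyrp1 reads than any wildtype library, and the authors' deposited table gives it an unadjusted p of 0.0750 and no adjusted p. Tyr had 5 reads and Mlana, a melanosome protein, 3 reads over the 6 libraries. Pmel, which forms the fibrils on which melanin is laid down, had 19, 5 and 9 reads in mutant libraries, against 11, 2 and 8 in wildtype libraries, and its exons overlap other annotated genes. The 5 pigment genes summed to 100 reads over the 6 libraries, and 4 of them had no adjusted p.

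Kit is also made by mast cells, so markers of that cell type are given beside it. Mcpt4 was at 0, and the base means of Tpsb2, Fcer1a, Ms4a2 and Cpa3 were 0.116, 0.133, 0.586 and 6.94. Gata2, a factor that other cells also make and the 1 measured gene of this list, had 34.1, 29.3 and 26.3 normalised reads in mutant libraries, against 12.0, 16.8 and 9.46 in wildtype libraries (moderated log2 fold change 0.40, adjusted p 0.116 per the authors' deposited table). The list summed to 41.0, 39.1 and 30.1 in mutant libraries, against 27.2, 20.7 and 16.6 in wildtype libraries, with no overlap. Without Gata2 it summed to 6.96, 9.78 and 3.76 normalised reads in mutant libraries, against 15.2, 3.87 and 7.10 in wildtype libraries. These sums overlapped, and the part of mast cells in the Kit result was not tested.

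Of 18 other genes of the melanoblast lineage, 11 were measured and 1, Pax3, was called higher, beside 1.75% of all genes. This gene encodes a factor of neural crest, melanoblasts and muscle precursors. Pax3 had 125, 92.9 and 108 normalised reads in mutant libraries, against 51.9, 58.1 and 42.6 in wildtype libraries (log2 fold change 0.67, adjusted p 4.46e-04 per the authors' deposited table of 6 libraries, and 0.42, adjusted p 0.0927 in that of 4). Ednrb, the endothelin receptor of melanoblasts and crest, was not called, with 524, 619 and 604 in mutant libraries, against 693, 699 and 866 in wildtype libraries (log2 fold change -0.31, adjusted p 0.114 per the authors' deposited table).

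Set beside each other, 2 of the 20 glial members with an adjusted p were called lower, beside 1.16% of all genes, and 1 of the 4 melanocyte members was called higher, beside 1.75% of all genes. Of the 18 measured glial members, 12 had a log2 fold change below 0 and 6 above, with a median of -0.14, per the authors' deposited table of 6 libraries, and 9 were below and 9 above, with a median of -0.005, in that of 4. The 3 measured melanocyte members had medians of 0.09 and 0.03. They were Kit and Mitf, which other cells also make, and the ligand Kitl, which melanocytes need not make. None of the 5 pigment genes was measured, so the contrast does not compare glia with melanocytes as cells. The median over all measured genes was -0.013 with 6 libraries and -0.002 with 4. By role, the median with 6 libraries was -0.22 for the transcription factors, 0.002 for the receptors and ligands and -0.15 for the cytoplasmic, membrane and myelin genes, and with 4 libraries it was -0.16, 0.12 and -0.01. These medians come from the authors' deposited tables, which share libraries, and genes are not replicates.

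Among the 21 measured members, 6 (28.6%) had all mutant libraries below all wildtype libraries, which held for 8.95% of measured genes. They were Sox10, Ngfr, Gpr37, Fabp7, Pmp22 and Kitl. In the other direction it was Kit alone, or 4.76% of measured members, beside 9.15% of measured genes (18.1% in either direction). With 3 libraries against 3, an exact permutation test of 1 gene cannot give a p under 0.10. An unadjusted p under 0.05 and a lower mutant level were found in 4 of the 18 glial members, Sox10, Ngfr, Gpr37 and Fabp7 (22.2%), beside 5.21% of measured genes per the authors' deposited table.

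**Figure D4:**
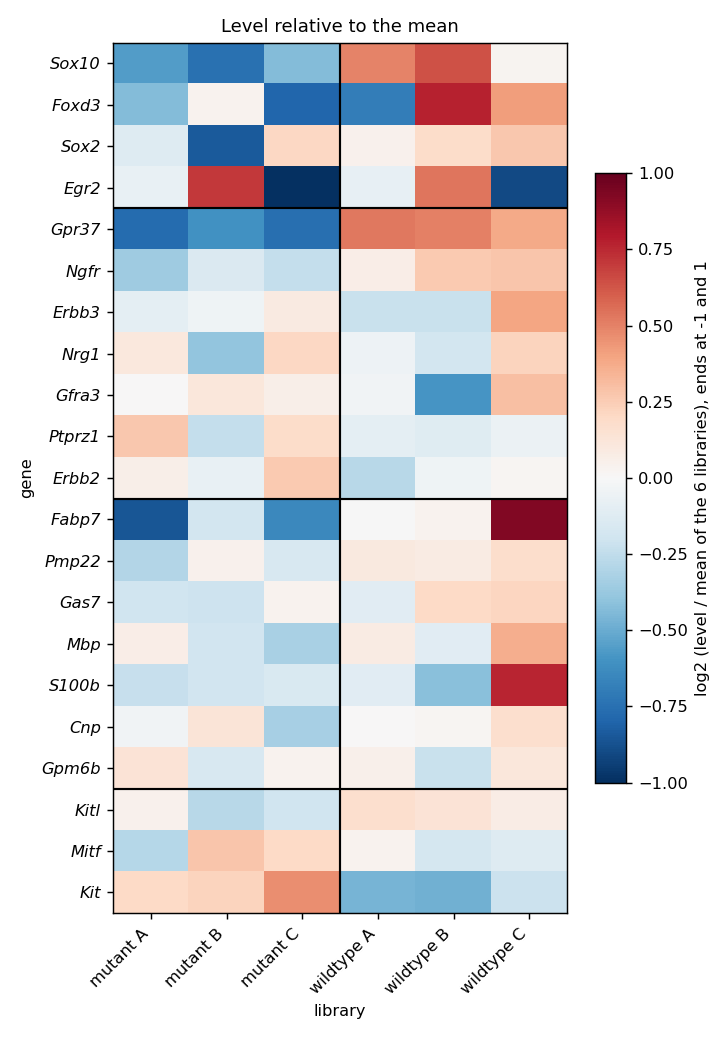
Log2 of the level in each library over the mean of the 6 libraries (colour scale, ends at -1 and 1) for the 21 measured members, mutant libraries left and wildtype libraries right. Gpr37 and Kit separate the genotypes in opposite directions, Egr2 varies within both genotypes, and wildtype C is highest for 11 of the 18 glial members.

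Wildtype C held the highest level for 11 of the 18 measured glial members, while 16.3% of all measured genes were highest there. The median ratio of a glial member to its mean over the 6 libraries was 0.924, 0.887 and 0.896 in mutant libraries, against 0.986, 1.02 and 1.19 in wildtype libraries A, B and C. A high wildtype C was not particular to glial members. Lists of epithelial and endothelial markers also had their highest median ratio in wildtype C, at 1.18 and 1.14. Muscle and macrophage markers did not, with 0.661 and 0.881 in wildtype C. That library and mutant C are left out of the 4-library table, in which the glial median is close to 0. Moderation can differ between the tables, so these medians need not be on a common scale. In libraries A and B, Gpr37 had 25.0 and 28.1 normalised reads in the mutant, against 61.5 and 60.7 in wildtype. Its moderated log2 fold change was nonetheless -0.59 with 6 libraries and -0.35 with 4. The part of wildtype C in each glial result beyond the values without it was not tested.

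The level of neuron and ganglion markers was lower in each mutant library than in any wildtype library and highest in wildtype C. Their median ratio to the mean was 0.685, 0.747 and 0.638 in mutant libraries, against 1.07, 1.02 and 1.88 in wildtype libraries. Of 16 such genes, 12 were measured, and all 12 had a log2 fold change below 0, beside 54% of all measured genes. Of the list, 6 were called lower, beside 1.16% of all genes, among them Tubb3, Dcx, Elavl4, Nefm and Gap43. With 4 libraries 2 were called lower, Dcx among them, beside 0.990% of all genes. The summed level of the list was 1454, 1521 and 1411 normalised reads in mutant libraries, against 1961, 1880 and 2423 in wildtype libraries, so the groups did not overlap. The median log2 fold change of the list was -0.37 with 6 and -0.16 with 4 libraries per the authors' deposited tables. Whether fewer nerves or ganglia in the dissected tissue had a part in the lower Gpr37, Ngfr and Sox10 was not tested.

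Some skeletal muscle and macrophage markers were called higher in the mutant. Of all genes, 1.75% were called higher and 1.16% lower with 6 libraries, and 1.31% and 0.990% with 4. Of 9 muscle markers in the table, all measured, 6 were called higher with 6 libraries (Myog, Myod1, Des, Ttn, Tnnt1 and Actc1) and 2 with 4 libraries (Myog and Tnnt1). Muscle markers with solved reads summed to 1816, 5049 and 2359 normalised reads in mutant libraries, against 781, 946 and 1171 in wildtype libraries. Much of these sums was Myh3, a myosin of embryonic muscle that was not called, with 967, 3555 and 1424 in mutant libraries, against 326, 559 and 664 in wildtype libraries. Of 8 macrophage markers, 3 were called higher with 6 libraries (Csf1r, Mrc1 and Adgre1) and 2 with 4 libraries (Csf1r and Mrc1). Macrophage markers summed to 1025, 1158 and 1164 in mutant libraries, against 766, 665 and 801 in wildtype libraries. Epithelial and endothelial lists held no called gene, with median log2 fold changes of 0.02 and -0.005 per the authors' deposited table. Among 8 palatal mesenchyme and neural crest markers, Twist1 and Prrx1 were called lower with 6 libraries and also with 4, where Pdgfra was called higher. In a list of 8 central nervous system progenitor markers, 1 was measured and Nkx2-1 was at 0. The part of these cell types in the Kit result was not tested.

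**Figure D5:**
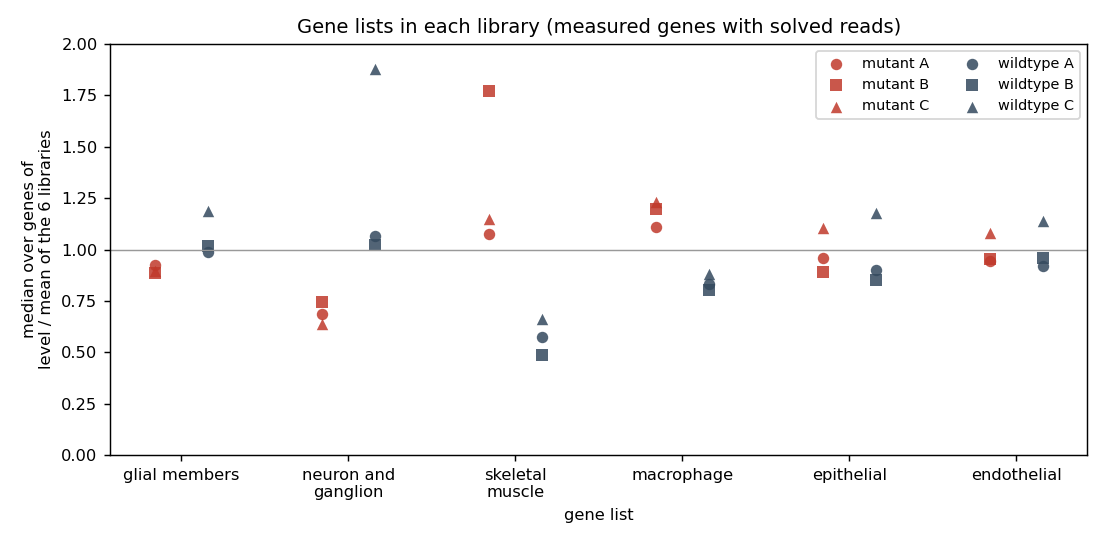
Median over the genes of a list of the level divided by the mean of the 6 libraries (vertical axis), for each library, mutant left and wildtype right. Glial members lie between 0.887 and 1.19, neuron markers between 0.638 and 1.88 with wildtype C highest, and the medians of muscle and macrophage markers are higher in each mutant library than in any wildtype library.

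Other genes of the same pathways were mostly not called. Of 18 further Schwann cell genes, 14 were measured, 1 was called higher and 0 were called lower, beside 1.75% and 1.16% of all genes. Their median was -0.05 on the log2 scale per the authors' deposited table. The called gene was Adgrg6, an adhesion G protein-coupled receptor that Schwann cells need to myelinate and that other tissues make. Adgrg6 had 683, 680 and 762 normalised reads in mutant libraries, against 435, 389 and 497 in wildtype libraries (log2 fold change 0.58, adjusted p 9.96e-06 per the authors' deposited table of 6 libraries, and 0.59, adjusted p 4.45e-05 in that of 4).

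Of 19 further genes of the ErbB, neuregulin, neurotrophin and GDNF families, 17 were measured and 1 was called, beside 2.90% of all genes. That gene was Egfr, the epidermal growth factor receptor and a partner of Erbb2, with a moderated log2 fold change of -0.48 (adjusted p 2.10e-04) per the authors' deposited table of 6 libraries and -0.48 (adjusted p 5.99e-06) in that of 4 libraries. The median of these genes was -0.11 with 6 and 0.003 with 4 libraries per the authors' deposited tables.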

How the data were processed

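RNA of anterior palatal mesenchyme, freed of epithelium with Dispase II, was extracted with an RNeasy Micro Plus kit and amplified before TruSeq RNA v2 library construction, per the labels' protocols. HISAT2, featureCounts and DESeq2 with GRCm38/mm10 are named, per the submitters' processing notes. No version, setting or strandedness is named in the sources used here. The 3 libraries of a genotype are biological replicates, per the labels' protocols, which do not say whether embryos were pooled.

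The authors deposited tables without headers, whose columns follow a DESeq2 result table: a base mean (a signal, counts over size factors averaged across libraries), a log2 fold change and its SE, a Wald score, a p-value and an adjusted p-value, as deposited. The design text describes each table as 1 pair of libraries, whereas the values show 6 libraries in the first and 4 of the same libraries in the second. The third of the 3 tables holds rows of the first and was not used.

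Size factors were found from genes with a single read, and whole reads per library were solved from the base means of both tables within their rounding, to a base mean of 1500. The method was tested on simulated counts. Each of the 18868 genes above 0 and up to that level had exactly 1 solution, and all 375 called genes with solved reads had the side of the deposited fold change. Which library is which replicate is not known. Solving used numba 0.67.0 and numpy 2.4.6 under python 3.11.

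Called means an adjusted p under 0.05 by the authors' DESeq2 Wald test with Benjamini-Hochberg adjustment over all genes, and measured means a base mean of at least 10. Lists are described by counts and medians, with no test. All 30 members and Meis2 are named. Genes of other lists are named where called in either table or, for defining markers, at 0, and Ednrb and Pax3 in any case. Some genes that this rule names are not reported here. The remaining mast cell markers were added after their values were seen. Members and lists were chosen with earlier results of these data known. Exon lengths and overlaps come from GENCODE, promoters from RefSeq. The alternatives were the 4-library table, other adjustments, thresholds, filters, centring, unmoderated ratios and leaving out each library. Limma 3.58.1 with a mean trend was run on log2(normalised reads + 1) of measured genes with solved reads, tested on simulated data first, to leave out each library from the calls.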

Additional observations from a re-analysis of the deposited data

How the results depend on the processing

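Of the 3 members called with 6 libraries, 1 (Kit) was called with 4 libraries, and Gpr37 and Ngfr were at -0.35 and -0.32 there; 2 (Gpr37 and Kit) were called at an adjusted p under 0.01. The count was 3 with the other adjustments, filters and thresholds and after centring on the median of all measured genes, which was added after seeing the data. With 4 libraries, the median log2 fold change of the cytoplasmic, membrane and myelin genes was -0.01, that of neuron markers -0.16 and that of muscle markers 0.33, beside -0.15, -0.37 and 0.49 with 6. The median of the glial minus that of the melanocyte members (Kit, Kitl and Mitf only) was -0.03 with 4 libraries and -0.23 with 6. Neuron markers had a median of -0.58 at a base mean of at least 100 and -0.17 with every gene above 0, and macrophage markers 0.49 at a base mean of at least 100, beside 0.27. The cause of these shifts was not tested, and moderated values with 6 and with 4 libraries need not be on a common scale. None of the called members changed sign in the settings run. Some members that were not called did, such as S100b, with an unmoderated log2 ratio of -0.36 over 6 libraries and 0.06 without wildtype C. Unmoderated log2 ratios over 6 libraries were larger than the deposited ones for genes with few reads, such as -0.98 for Sox10 (between -1.14 and -0.85 with any 1 library left out) and -0.92 for Fabp7 (between -1.13 and -0.55). Limma on solved reads called 3 members with 6 libraries, and between 0 (without wildtype A) and 2 (each other library left out) with 1 library left out. Of all 12457 genes tested it called 311 with 6 libraries, 127 without wildtype A and between 185 and 375 in the other fits. The fold changes of Gpr37, Kit and Ngfr kept their sign in these fits. No paired analysis was possible because the libraries in the tables carry no replicate number. Low depth limits the 9 members under a base mean of 10.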

Other observations

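Tubb3, a tubulin of neurons, had 76.5, 68.5 and 54.6 normalised reads in mutant libraries, against 142, 99.4 and 246 in wildtype libraries, with a log2 fold change of -0.68 (adjusted p 5.19e-04) per the authors' deposited table of 6 libraries and -0.33 (adjusted p 0.314) in that of 4.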
